A study of Mus musculus with 6 samples.

Results

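The genes described are the single-letter cathepsins other than Ctsg and the subunits and accessory proteins of the vacuolar proton pump (V-ATPase). They were taken by symbol, as rows named Cts plus 1 letter, or beginning with Atp6v or Atp6ap, and came to 43 of the 24318 rows of the table, 17 cathepsins and 26 pump genes. Their RNA was measured in whole liver of C57BL/6 mice of 1 genotype, VEcadCreERT2/TAK1flox/flox, in which tamoxifen switches on a Cre recombinase that the promoter of the endothelial gene Cdh5 drives, so that Map3k7, the gene of the kinase TAK1, can be deleted in endothelial cells. Control livers (3 libraries) came from mice of that genotype given no treatment, and knockout livers (3 libraries) from mice given tamoxifen. Both groups carry the Cre and the loxP-flanked alleles, so the deletion and tamoxifen itself cannot be told apart. Age, sex and time after tamoxifen are not given in the sources used here.

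Lysosomes digest proteins, lipids and sugars delivered by endocytosis, phagocytosis and autophagy. Cathepsins are their main proteases, and most of them are made as inactive precursors that mature in an acid compartment. The V-ATPase makes that acidity: its cytosolic V1 sector hydrolyses ATP and turns a rotor that drives protons through the membrane-bound V0 sector. All nucleated liver cells have both, and phagocytes such as Kupffer cells and recruited macrophages are rich in lysosomes. Several genes of both families share a promoter element, the CLEAR element, that the transcription factor TFEB and its relatives bind.

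Values are FPKM as normalized by the submitters, fragment numbers divided by transcript length and by a measure of library size, so levels can be compared between genes. Log2 fold changes are of knockout against control on the log2(FPKM + 0.5) scale with their standard error, and understate the change of low genes. A gene is said to have risen or fallen where limma's Benjamini-Hochberg adjusted p over all 11842 genes tested was under 0.05. The labels call the libraries triplicates without saying that they are separate animals, so the p-values speak only of the spread among these libraries. In whole liver, more cells of a type and more RNA per cell cannot be told apart. Steps between the lowest values put the depth of the other libraries at 0.921 to 1.08 times that of control 1, if each was scaled by its own mapped fragments. The total depth is unknown. The targeted gene Map3k7 measured 8.498, 9.02 and 9.14 FPKM in the controls against 9.28, 9.31 and 7.35 in the knockouts (exact two-sided permutation p = 1, with 0.1 the smallest possible). This does not check the labels, since the other cells of the liver express it too.

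Single cathepsins and pump genes rose in knockout livers, and no member fell. Of the 17 cathepsins, 6 rose, none fell, 7 did not pass the test and 4 were at 0 in every library. Among all genes tested 27% were called, 14.1% higher and 13% lower. Of the 26 pump genes, 2 rose, none fell, 16 did not pass, 2 were detected but too low to test and 6 were at 0 in every library. The filter on low values, an average over all 6 libraries of 0.5 FPKM or more, was passed by 31 of the 43 genes, and 2 of these, Ctse and Ctsw, had control means below 0.5 FPKM and passed through their knockout values. Median log2 fold changes were 0.57 over the 13 cathepsins tested, -0.04 over the 18 pump genes tested and -0.0007 over all genes. With the filter at a mean of at least 1 FPKM, which drops Ctse and Ctsw, 5 of 11 cathepsins rose and none fell. Of all genes 14.6% were then called higher and 14.2% lower. The median under that filter was 0.44 over the 11 cathepsins. It was then -0.02 over 17 pump genes and -0.02 over all genes. Knockout and control libraries did not overlap for 6 cathepsins in the upward and 2 in the downward direction, and for 4 and 1 pump genes, against 22.4% and 21.1% of all genes tested.

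**Figure D1:**
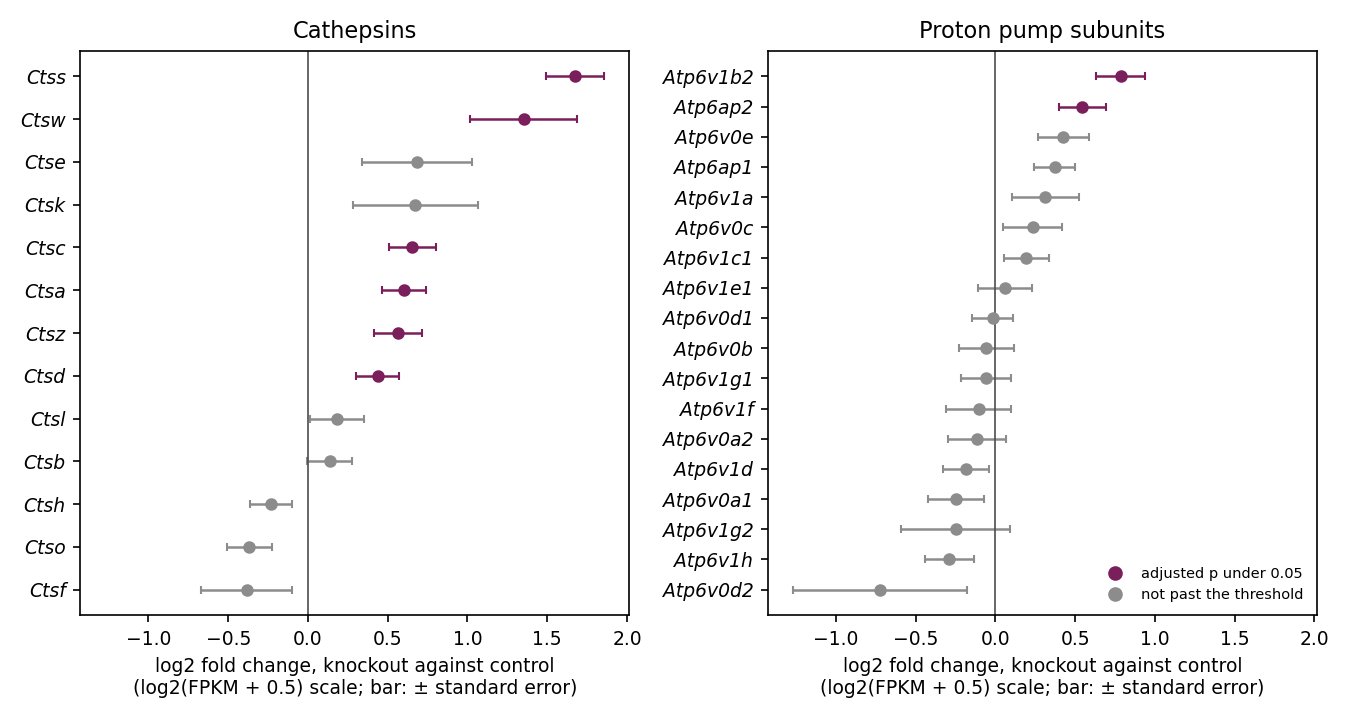
Log2 fold change of each tested cathepsin (left) and proton pump gene (right), knockout against control, as points with bars of ± 1 standard error; dark points passed the adjusted p threshold of 0.05 over all genes tested. The 6 dark cathepsins lie between 0.44 and 1.67, and of the 18 pump genes only Atp6v1b2 and Atp6ap2 are dark.

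Cysteine cathepsins typical of leukocytes included the member with the largest log2 fold change. Ctss encodes cathepsin S, which trims the invariant chain from MHC class II in antigen-presenting cells and stays active at neutral pH (ENSMUSG00000038642, chromosome 3, 95526786 to 95556403, plus strand, GRCm38). It measured 56.5, 50.2 and 78.2 FPKM in the controls against 169, 218 and 198.6 in the knockouts. Every knockout library was above every control, and control 3 was the highest control. The mean was 3.17 times higher in knockout livers (log2 fold change 1.67 ± 0.18, limma adjusted p = 3.71e-04), and the call held under all 18 alternatives, with log2 fold changes of 1.54 to 1.95.

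Ctsc encodes cathepsin C, the dipeptidyl peptidase that activates the granule serine proteases of neutrophils, mast cells and cytotoxic lymphocytes (chromosome 7, 88278085 to 88310888, plus strand, GRCm38). It measured 60.9, 59.8 and 77.4 FPKM in the controls against 103, 95.3 and 112.5 in the knockouts, with control 3 again the highest control and no overlap. Its log2 fold change was 0.65 ± 0.15 (limma adjusted p = 0.0105), and 0.59 with adjusted p = 0.0538 without control 2.

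Ctsw, a cathepsin of cytotoxic T and natural killer cells, was far less abundant, at 0.397, 0 and 0.368 FPKM in the controls against 1.15, 1.70 and 1.29 in the knockouts. The smallest whole fragment numbers that give these steps are 1, 0 and 1 in control and 3, 4 and 3 in knockout libraries, so its call rests on few fragments (log2 fold change 1.35 ± 0.34, limma adjusted p = 0.0159). With other pseudocounts its log2 fold change was between 0.93 and 2.36, and without control 2 its adjusted p was 0.0513. Ctsk, the collagen-degrading cathepsin of osteoclasts and fibroblasts, measured 0.597, 1.55 and 0.551 FPKM in the controls against 1.43, 2.87 and 0.971 in the knockouts. These overlapped, and its log2 fold change of 0.67 ± 0.39 did not pass (limma adjusted p = 0.237).

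The serine carboxypeptidase Ctsa, which also stabilises the lysosomal sialidase and beta-galactosidase, measured 44.3, 45.5 and 44.2 FPKM in the controls against 59.7, 77.7 and 68.3 in the knockouts (chromosome 2, 164832873 to 164841032, plus strand, GRCm38). The controls lay close together and all knockout libraries were above them. Its log2 fold change was 0.60 ± 0.14 (limma adjusted p = 0.0112), and its call held under all 18 alternatives. Exons of Pltp, on the opposite strand, share 495 of the 4715 annotated exonic bases of Ctsa (10.5%). Pltp rose too, from a mean of 27.3 to 86.8 FPKM, and the sources used here do not say whether counting used strand. How far its reads add to Ctsa was not tested.

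Ctsd, the major aspartic protease of lysosomes and the most abundant cathepsin here, measured 234, 239.7 and 253 FPKM in the controls against 291, 354 and 342 in the knockouts (chromosome 7, 142375911 to 142388038, minus strand, GRCm38). The groups did not overlap, and the mean rose 1.36 times (log2 fold change 0.44 ± 0.13, limma adjusted p = 0.0388). This call was the least stable of the 6: it was lost on leaving out any library other than knockout 1 (0.38 to 0.52 over the 6 left out in turn), at an equal total FPKM, without the mean-variance trend and with the replicate block (adjusted p up to 0.125). Its relative Ctse, an endosomal aspartic protease of gastric and immune cells, measured 0.432, 0.224 and 0.399 FPKM in the controls against 0.414, 1.15 and 1.17 in the knockouts. Knockout 1 lay among the controls, and Ctse did not pass (log2 fold change 0.69 ± 0.35, limma adjusted p = 0.173).

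Among the broadly expressed cysteine cathepsins, 1 of 6 rose. Ctsz, a carboxypeptidase also called cathepsin X, measured 175, 180 and 160 FPKM in the controls against 217, 299 and 254.5 in the knockouts (chromosome 2, 174427493 to 174439039, minus strand, GRCm38). All knockout libraries were above all controls. Its log2 fold change was 0.57 ± 0.15 (limma adjusted p = 0.0214), but it no longer passed on leaving out any library other than knockout 1 (0.45 to 0.68 over the 6 left out in turn, adjusted p up to 0.0608), nor without the mean-variance trend (adjusted p = 0.0559).

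The endopeptidases Ctsb and Ctsl, with Ctsd the 3 most abundant cathepsins in control livers, did not pass. Ctsb measured 208, 221.7 and 252 FPKM in the controls against 224, 251 and 273 in the knockouts (log2 fold change 0.14 ± 0.14, limma adjusted p = 0.517). Fdft1, which fell from a mean of 45.7 to 15.2 FPKM, shares 12.8% of the annotated exonic bases of Ctsb on the opposite strand, and its part in the value was not tested. Ctsl measured 239, 261 and 193 FPKM in the controls against 223.6, 309 and 256 in the knockouts (log2 fold change 0.18 ± 0.17, limma adjusted p = 0.466). In both genes the groups overlapped. With quantile normalization Ctsl was called higher (log2 fold change 0.46, adjusted p = 0.0461).

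The other broadly expressed cysteine cathepsins, 3 in number, had lower means in knockout livers, though none passed. The aminopeptidase Ctsh measured 145, 148 and 126 FPKM in the controls against 109.7, 125.8 and 120.6 in the knockouts, with control 3 just above knockout 2 (log2 fold change -0.23 ± 0.13, limma adjusted p = 0.226). Under quantile normalization the sign of Ctsh turned, to 0.18. Ctso measured 21.8, 19.6 and 22.8 FPKM in the controls against 16.3, 15.5 and 17.5 in the knockouts, with no overlap (log2 fold change -0.37 ± 0.14, limma adjusted p = 0.0817). With all libraries rescaled to an equal total, Ctso was called lower (log2 fold change -0.49, adjusted p = 0.0406). Ctsf ranged from 12.1 to 15.3 FPKM in control and from 6.59 to 16.5 FPKM in knockout libraries and overlapped (log2 fold change -0.38 ± 0.28). The placental cathepsins Ctsj, Ctsm, Ctsq and Ctsr were listed at 0 in all 6 libraries.

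**Figure D2:**
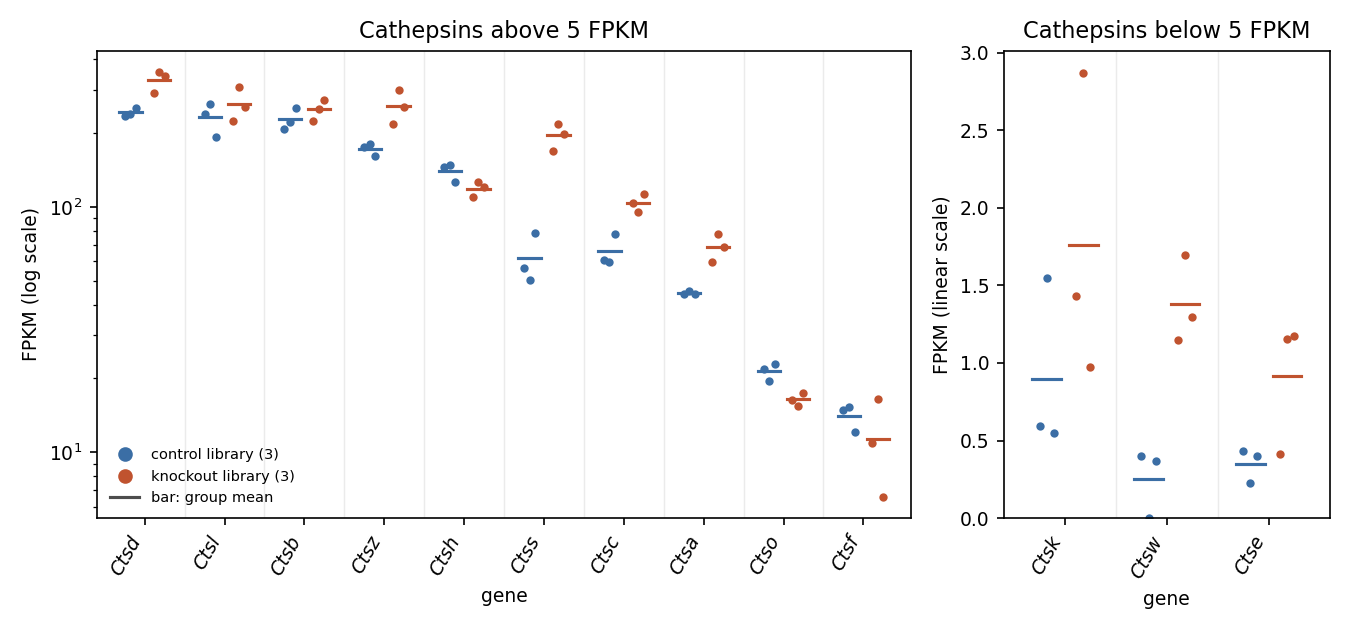
FPKM of each detected cathepsin in every library (points; control left, knockout right of each gene) with the group means as bars, on a log axis for the 10 genes above 5 FPKM and a linear axis for the 3 below. Among the genes on the log axis, Ctss shows the widest gap, 50.2 to 78.2 against 169 to 218 FPKM, whereas Ctsb, Ctsl and Ctsf overlap between groups.

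The mixture of cathepsin RNA differed between the groups. Summed over the family, cathepsins gave 1202, 1242 and 1221 FPKM in the controls against 1428, 1768 and 1653 in the knockouts, which did not overlap. Ctss made up 4.70%, 4.04% and 6.41% of that sum in control and 11.8%, 12.3% and 12.01% in knockout libraries. Ctsh went the other way, from 12.04%, 11.9% and 10.3% to 7.68%, 7.12% and 7.29%, though its own FPKM did not pass the test. As the sum rose, the share of an unchanged gene falls. The share of Ctsb fell from 17.3% to 20.7% in control to 14.2% to 16.5% in knockout libraries, while its mean went from 227 to 250 FPKM. The 5 most abundant cathepsins of control livers, Ctsd, Ctsl, Ctsb, Ctsz and Ctsh, together held 80.7% to 84.5% of the sum in control and 74.6% to 75.7% in knockout libraries. Ctsd kept a similar share, 19.3% to 20.7% in control and 20.03% to 20.7% in knockout libraries. Ctss RNA stood at 27.2%, 22.6% and 30.98% of the Ctsb level in controls and at 75.3%, 86.9% and 72.7% in knockouts. These sums and shares are descriptions with no test.

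**Figure D3:**
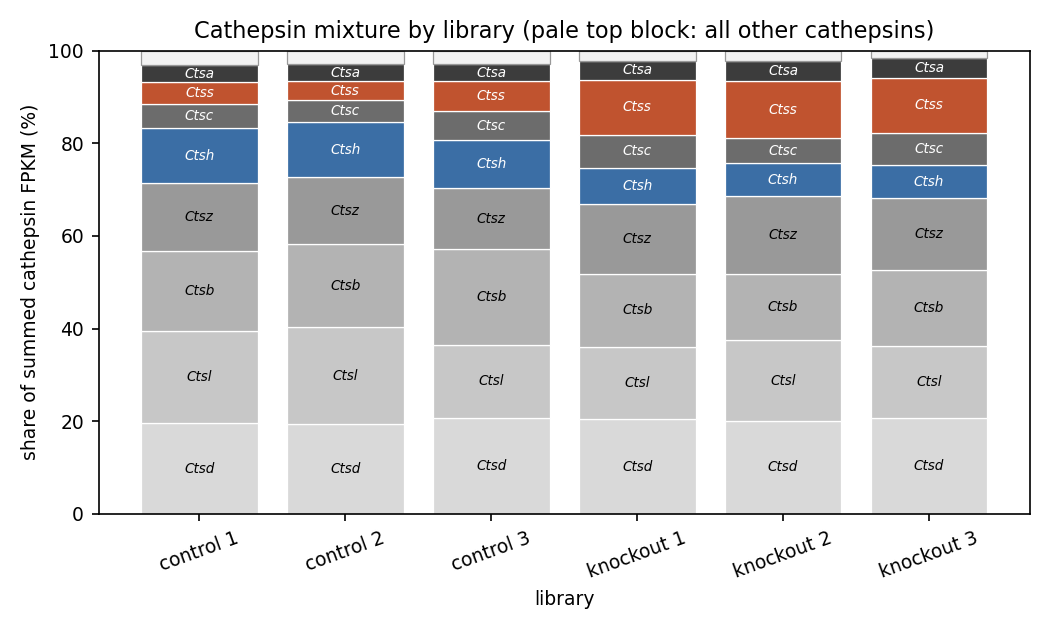
Share of each cathepsin in the summed cathepsin FPKM of each library, as stacked bars that total 100%, with Ctss in orange-red, Ctsh in blue and the pale block at the top for all other cathepsins. The Ctss block widens from 4.04% to 6.41% in control to 11.8% to 12.3% in knockout libraries, while the Ctsh block narrows.

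Markers of several leukocytes moved with the cathepsins, and their part in the changes was not tested. In the macrophage and Kupffer cell list 14 of 20 markers rose, none at 0 throughout, where 14.1% of all genes tested were called higher and 13% lower. The list summed to 947 to 1707 FPKM in the controls against 2233 to 2578 in the knockouts. Control 3 held the highest control sum. Of the 6 cathepsins that rose, it was the highest control for Ctss, Ctsc and Ctsd, but not for Ctsa, Ctsw and Ctsz. It also held the highest control sum in other lists, among them sinusoidal endothelium and stellate cells and fibroblasts, and the lowest in the hepatocyte list. Cd68, a lysosomal membrane glycoprotein of phagocytes, rose by a log2 fold change of 1.70 ± 0.19 (limma adjusted p = 4.23e-04), close in size to Ctss. The ratio of Ctss to Cd68 was 3.52, 3.85 and 3.66 in control and 3.18, 4.46 and 3.13 in knockout libraries, so it overlapped, as did the ratio to the lysozyme gene Lyz2 (0.296 to 0.586 and 0.335 to 0.517). Both denominators rose more than most of the list: Lyz2 had a log2 fold change of 1.88 ± 0.36, and the list a median of 1.01. An overlap with these 2 genes therefore does not stand for the whole list. Against the summed macrophage list the ratio of Ctss did not overlap, with Ctss at 4.58% to 5.96% of that sum in controls and at 7.57% to 8.47% in knockouts. The Kupffer cell lectin Clec4f, at 93.6, 115 and 140 FPKM in the controls against 139, 126 and 125 in the knockouts, did not pass (limma adjusted p = 0.456). Timd4, Marco, Cd163, Mrc1 and Mertk of this list did not pass either. Vsig4 (limma adjusted p = 0.012) and Cd5l (limma adjusted p = 0.0064) were among the markers that rose.

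**Figure D4:**
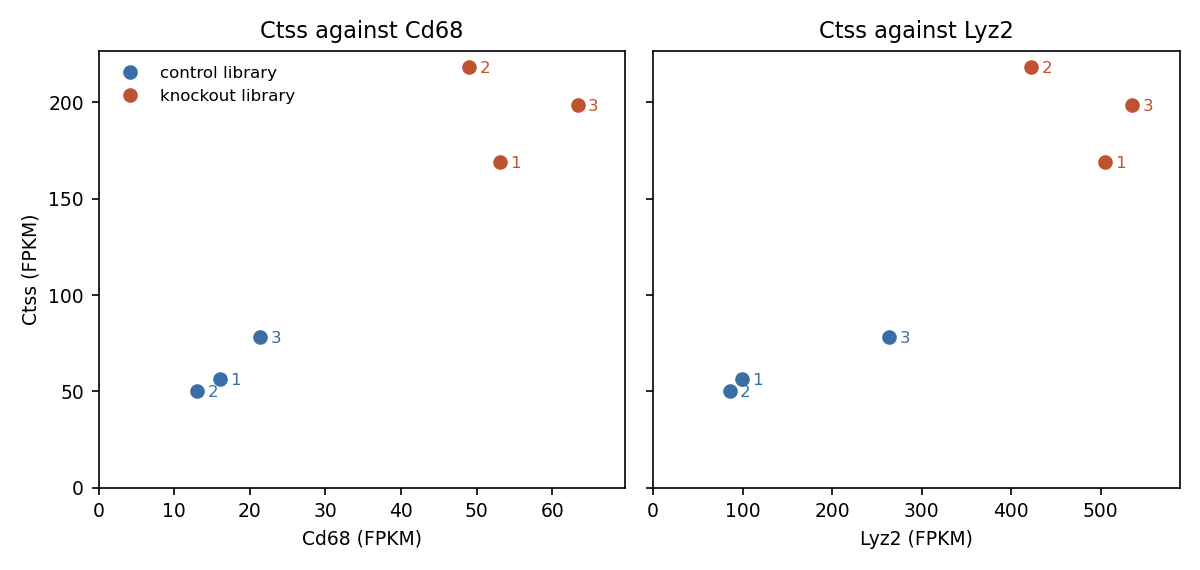
Ctss FPKM against the FPKM of the phagocyte genes Cd68 (left) and Lyz2 (right), 1 point per library, numbered by replicate. Knockout libraries lie apart from controls on both axes, and control 3, at 264 FPKM of Lyz2, lies nearest to them.

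Most other lists moved as well, and their counts stand beside 14.1% of all genes tested called higher and 13% lower. All 10 monocyte markers (302 to 401 FPKM summed in control, 792 to 821 in knockout libraries) and all 12 neutrophil markers (37.3 to 76.4 and 1743 to 1833) rose. The same held for 4 of 6 dendritic cell markers tested (225 to 262 and 670 to 726), all 6 eosinophil markers tested (7.44 to 17.3 and 102 to 151) and all 6 B cell markers tested (1.72 to 5.36 and 16.05 to 32.8). Of 8 T and NK cell markers tested, beside which Ctsw belongs, 2 rose, with sums of 7.07 to 9.85 FPKM in the controls against 22.6 to 29.7 in the knockouts. Stellate cell and fibroblast markers rose in 8 of 12 (211 to 269 and 403 to 520), hepatocyte markers rose in 1 and fell in 4 of 10 (19419 to 25133 and 16496 to 17425), and sinusoidal endothelial markers fell in 9 of 10 (169 to 251 and 35.3 to 37.8). Cholangiocyte markers gave 1 higher and 1 lower of 6 tested, near the shares of all genes (35.8 to 49.002 and 43.7 to 55.4). None of these markers was at 0 in all 6 libraries. Ctsg, the neutrophil granule protease left out by the rule, measured 1.02, 0 and 1.41 FPKM in the controls against 12.7, 16.3 and 12.7 in the knockouts.

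Summed over each sector, the proton pump subunits did not separate the groups. Summed V1 subunits gave 334, 281 and 271 FPKM in the controls against 285, 310.2 and 321 in the knockouts. V0 subunits summed to 239, 217 and 188 FPKM in the controls against 211, 255 and 225 in the knockouts. Both sums overlapped, as did the ratio of V1 to V0, at 1.29 to 1.45 and 1.22 to 1.43. The sums leave out the accessory genes and Tcirg1, and abundant subunits weigh most in them. The median log2 fold change over the pump genes depended on the scaling. It was -0.04 as deposited, -0.16 at an equal total and 0.17 with quantile normalization, where all genes had medians of -0.0007, -0.10 and -0.06.

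In the V1 sector the ATP is hydrolysed by a ring of A and B subunits. The B subunit gene Atp6v1b2, the broadly expressed form, was the single V1 member that rose (chromosome 8, 69088646 to 69113711, plus strand, GRCm38). It measured 22.1, 19.03 and 24.01 FPKM in the controls against 33.4, 38.1 and 41.8 in the knockouts, without overlap. The mean was 1.74 times higher (log2 fold change 0.78 ± 0.15, limma adjusted p = 0.00501), and the call held under all 18 alternatives, with log2 fold changes of 0.67 to 0.93. Its partner in the ring, the catalytic A subunit gene Atp6v1a, measured 15.3, 13.2 and 22.8 FPKM in the controls against 23.2, 18.4 and 20.9 in the knockouts. Control 3 lay among the knockout libraries, and Atp6v1a did not pass (log2 fold change 0.31 ± 0.21, limma adjusted p = 0.305), with 0.53 and adjusted p = 0.0535 without control 3.

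Genes of the V1 rotor and stators did not pass. The rotor subunit gene Atp6v1d had a log2 fold change of -0.19 ± 0.14, and Atp6v1f, the other rotor subunit, of -0.10 ± 0.20. Among the stator genes, Atp6v1e1, the most abundant pump gene at a mean of 84.0 FPKM in control and 87.2 FPKM in knockout livers, had a log2 fold change of 0.06 ± 0.17. Atp6v1g1 had -0.06 ± 0.15, with all knockout values, 28.4 to 33.03 FPKM, inside the range of the controls. Atp6v1c1, whose subunit links the stators to V0, had 0.19 ± 0.14. Atp6v1h, which encodes a regulatory subunit needed for ATP hydrolysis, ranged from 22.03 to 29.9 FPKM in control and from 20.1 to 21.8 FPKM in knockout libraries, the only V1 gene with all knockout libraries lower (log2 fold change -0.29 ± 0.15, limma adjusted p = 0.193). The brain form Atp6v1g2 stayed below 1 FPKM in every library, and the tissue-restricted forms Atp6v1b1, Atp6v1c2, Atp6v1e2 and Atp6v1g3 were listed at 0 in all of them.

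No V0 gene passed the test on the values as deposited. Atp6v0e, a small membrane subunit, came nearest: it measured 60.1, 59.04 and 48.4 FPKM in the controls against 64.7, 89.0 and 72.7 in the knockouts, which did not overlap (log2 fold change 0.42 ± 0.16, limma adjusted p = 0.0789). It was called higher with equal upper quartiles (0.50, adjusted p = 0.04) and with quantile normalization (0.68, adjusted p = 0.0112). The proteolipid gene Atp6v0c, whose product forms most of the rotating ring, had a log2 fold change of 0.23 ± 0.19, and Atp6v0b, a related ring subunit, of -0.06 ± 0.17. Atp6v0d1, which couples the ring to the V1 rotor, had nearly equal means of 54.2 and 53.5 FPKM (log2 fold change -0.02 ± 0.13).

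The d subunit has a second form, Atp6v0d2, known from osteoclasts, macrophages and kidney. It measured 5.59, 3.56 and 0.666 FPKM in the controls against 1.73, 1.73 and 0.783 in the knockouts. Control 3 lay below every other library, so the groups overlapped. It did not pass with all libraries (log2 fold change -0.72 ± 0.55, limma adjusted p = 0.364), but fell once control 3 was left out (log2 fold change -1.42, adjusted p = 0.0195).

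Genes of the a subunit steer the pump to different membranes and carry the proton half-channels. Atp6v0a1 (mean 14.3 FPKM in control, 11.96 in knockout), Atp6v0a2 (6.71 and 6.17) and the a3 gene Tcirg1, which the naming rule misses (13.96 and 13.1), were all detected and none passed. Tcirg1 took 37.1% to 42.2% of a subunit RNA in control and 35.9% to 48.5% in knockout libraries. Atp6v0a4, the form of kidney and epididymis, was too low to test, at 0.270, 0 and 0.249 FPKM in the controls against 0.388, 0.577 and 0.586 in the knockouts. These steps correspond to at least 2, 0 and 2 fragments in control and 3, 4 and 4 in knockout libraries.

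Of the 3 accessory genes, 1 rose. Atp6ap2, the prorenin receptor, which is also needed for assembly of the pump, measured 17.6, 17.1 and 20.5 FPKM in the controls against 24.04, 29.9 and 27.4 in the knockouts (chromosome X, 12587801 to 12617049, plus strand, GRCm38). The groups did not overlap (log2 fold change 0.55 ± 0.15, limma adjusted p = 0.0242). Its call was lost without control 1, control 2, knockout 2 or knockout 3, with log2 fold changes of 0.47 to 0.63 over the 6 libraries left out in turn, at an equal total FPKM and without the mean-variance trend. Atp6ap1, the Ac45 assembly factor, measured 43.4, 45.5 and 41.4 FPKM in the controls against 53.2, 61.05 and 54.8 in the knockouts, again without overlap, but did not pass (log2 fold change 0.37 ± 0.13, limma adjusted p = 0.058). It was called higher with equal upper quartiles (0.44, adjusted p = 0.027) and with quantile normalization (0.57, adjusted p = 0.00995). Atp6ap1l and the pseudogene Atp6v0c-ps2 were listed at 0 throughout.

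**Figure D5:**
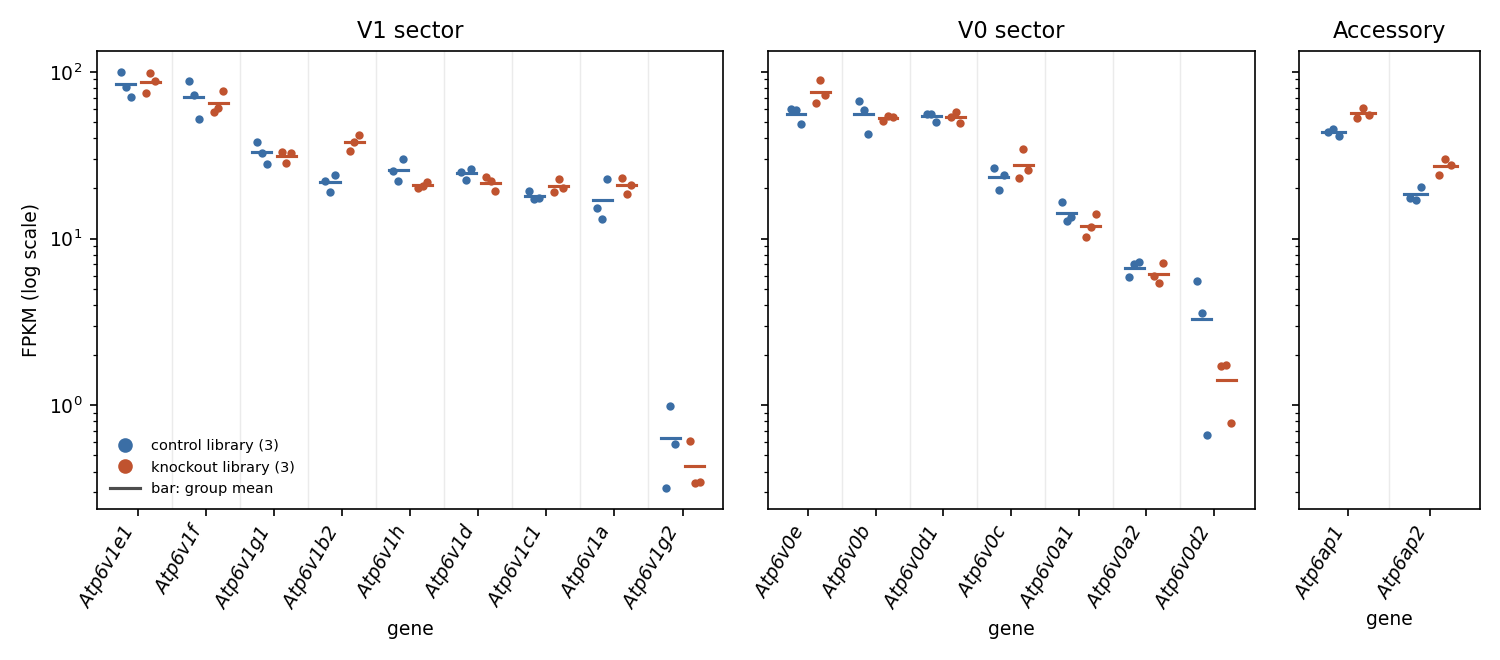
FPKM (log axis) of each tested proton pump gene in every library, by sector, with control points left and knockout points right of each gene and bars for group means. Most pairs overlap; Atp6v1b2, Atp6ap2, Atp6ap1 and Atp6v0e have all 3 knockout libraries above all controls, and Atp6v1h has all 3 below.

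How far the calls depended on the scaling differed between the families. With every library rescaled to an equal total FPKM, the median over all genes moved from -0.0007 to -0.10 and 39.5% of all calls were higher, against 52.1% as deposited. Of the cathepsins, 5 were then called higher, all but Ctsd of the original 6, and 1, Ctso, lower, and of the pump genes Atp6v1b2 alone was called higher, where 11.4% of all genes were called higher and 17.5% lower. With quantile normalization, 7 cathepsins and 4 pump genes were called higher and none lower, against 13% and 12.4% of all genes. With the upper quartile equalised 6 and 4 were higher and none lower, against 15.7% and 11.2%. Leaving out control 2 left 2 cathepsins called, Ctss and Ctsa, and Atp6v1b2 of the pump, against 9.85% of all genes called higher and 7.9% lower.

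Promoter sequences of the members are shown because many lysosomal genes carry the CLEAR element, whose core is the E-box CACGTG. RefSeq windows on GRCm38.p6, from 250 bases before to 50 after a start site, were found for 31 of the 43 members. CACGTG, a palindrome and so the same on both strands, occurred in the windows of 8 of these 31 genes (25.8%), against 8.09% of all 27025 genes with a window. TCACGTG, the E-box with the T that precedes it in the CLEAR element, searched on both strands and containing CACGTG, occurred in 6 of 31 (19.4%), against 4.29%. The 8 with an E-box were Ctsa, Ctsd, Ctsf, Ctsl, Atp6v0b, Atp6v0d1, Atp6v0e and Atp6v1a, of which Ctsa and Ctsd rose. All 8 were tested, with a median log2 fold change of 0.25. Of the 23 without, 13 were tested, 4 rose and the median was 0.23. Ctsw and Atp6v1b2, which also rose, had no window and are in neither set. The stretches below run 5′ to 3′ on the gene's strand with the E-box in capitals: Ctsa chr2:164833728-164833787 (plus), Ctsd chr7:142387888-142387947 (minus), Atp6v0b chr4:117887325-117887384 (minus) and Atp6v1a chr16:44139355-44139414 (minus).
Ctsa: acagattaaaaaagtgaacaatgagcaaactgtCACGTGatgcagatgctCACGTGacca
Ctsd: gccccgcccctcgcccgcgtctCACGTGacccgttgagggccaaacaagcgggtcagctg
Atp6v0b: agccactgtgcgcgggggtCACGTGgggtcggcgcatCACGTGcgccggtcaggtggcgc
Atp6v1a: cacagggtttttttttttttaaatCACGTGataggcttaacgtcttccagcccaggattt

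Ctss had no E-box in its window. The 60 bases around its start site (chr3:95526731-95526790, plus) are shown because, when they were read, they held GAAANNGAAA, the core of the element that interferon regulatory factors bind, here in capitals. That motif was chosen after the sequence was seen. Searched on both strands, it occurred in the windows of 3 of the 31 genes, Ctss, Ctso and Atp6v1d (9.68%), against 3.99% of all genes with a window, and neither Ctso nor Atp6v1d rose. A match describes letters, not a bound site.
Ctss: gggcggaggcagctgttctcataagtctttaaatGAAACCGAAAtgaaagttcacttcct

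TFEB and TFE3, which bind the CLEAR element, did not pass at the RNA level. Tfeb measured 3.31, 2.63 and 3.95 FPKM in the controls against 4.22, 4.37 and 3.48 in the knockouts (log2 fold change 0.26 ± 0.21, limma adjusted p = 0.402), and Tfe3 had a log2 fold change of -0.06 ± 0.17 (both named after their values were seen). Of 23 lysosomal regulators and nutrient sensors tested, 2 rose and 3 fell, where 14.1% of all genes tested were called higher and 13% lower. The macrophage family member Tfec rose from 1.57, 2.45 and 3.14 to 4.27, 4.76 and 6.82 FPKM (limma adjusted p = 0.0213). Lamtor2 and Lamtor4, subunits of the Ragulator complex that anchors mTORC1 to lysosomes and binds the V-ATPase, fell by log2 fold changes of -0.70 ± 0.16 and -0.65 ± 0.19. The repressor of lysosomal genes Zkscan3 fell as well (log2 fold change -0.70 ± 0.23, limma adjusted p = 0.046). This list gave no riser without control 2 or knockout 3 and 1 without any other library, and 1 faller without control 1, control 2 or knockout 3.

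Of 41 other lysosomal hydrolases tested, 8 rose and 2 fell, where 14.1% of all genes tested were called higher and 13% lower (median log2 fold change 0.27 against -0.0007). There were 4 risers without control 1 or control 2 and 1 faller without control 1, control 2 or knockout 3. Lgmn, the asparaginyl endopeptidase that processes several cathepsins, measured 62.3, 66.5 and 99.3 FPKM in the controls against 135, 207 and 193 in the knockouts (log2 fold change 1.23 ± 0.22, limma adjusted p = 0.00343). As in Ctss and Ctsc, control 3 was the highest control. The phospholipase family member Pld3 rose by a log2 fold change of 0.92 ± 0.21 and the acid ceramidase Asah1 by 0.86 ± 0.17, while the hyaluronidase Hyal1 fell by a log2 fold change of -1.05 ± 0.22. Hyal2 was the other faller.

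Of 29 lysosomal membrane and transport proteins tested, 6 rose and 2 fell, beside the same shares of all genes (median 0.07). Besides Cd68, the leukocyte protein Laptm5 rose from a range of 15.9 to 31.2 FPKM to one of 70.3 to 84.9 FPKM (limma adjusted p = 5.93e-04), and the iron transporters Slc11a2 and Slc11a1, the latter of phagosomes, by log2 fold changes of 1.32 ± 0.19 and 1.16 ± 0.20. Lamp2, an abundant structural protein of the lysosomal membrane, fell from 373, 386 and 381 to 273, 239.6 and 291 FPKM (log2 fold change -0.51 ± 0.13, limma adjusted p = 0.0195), and Abca2 fell too. Leaving out control 1, control 2 or knockout 2 left 1 faller.

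Among inhibitors of cathepsins, 5 of 13 tested rose and none fell, again beside 14.1% and 13% of all genes, with 3 risers without control 1, control 3 or knockout 3 and 1 faller without control 1. Cst3, the secreted inhibitor cystatin C, measured 232, 212 and 203 FPKM in the controls against 265, 307 and 332 in the knockouts (log2 fold change 0.48 ± 0.14, limma adjusted p = 0.0312). Stfa2l1, a stefin of neutrophils, was listed at 0, 0 and 1.65 FPKM in control and at 6.89, 9.41 and 5.70 FPKM in knockout libraries. The proteinase inhibitor A2m, counted among the 5, passed the filter only through its knockout values: it was listed at 0 in all controls, which can be a failed estimate, and at 3.22, 5.39 and 3.55 FPKM in knockout libraries. Ctla2a, which resembles a cathepsin propeptide, rose by a log2 fold change of 1.66 ± 0.18, and the kininogen gene Kng2 by 0.56 ± 0.16.

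Of 24 genes that sort lysosomal enzymes, 2 rose, the sorting receptor Sorl1 (0.497 to 0.915 FPKM in the controls against 3.71 to 6.18 in the knockouts) and the late endosomal GTPase Rab7 (log2 fold change 0.48 ± 0.15, limma adjusted p = 0.0387). Of 13 pump partners outside the naming rule, 2 rose and 2 fell, these shares too standing beside 14.1% and 13% of all genes. Aldoa, a glycolytic enzyme that binds the pump, ranged from 44.01 to 58.8 FPKM in controls and from 207 to 298 FPKM in knockouts and rose. Rnasek, a pump-associated membrane protein, fell by a log2 fold change of -0.55 ± 0.15. Each list gave 1 riser without control 1, control 2, knockout 1 or knockout 2, and the partners 1 faller without control 1, control 2, knockout 1 or knockout 3.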

How the data were processed

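Whole liver RNA was sequenced in 6 libraries. A TruSeq v2 kit and paired-end HiSeq sequencing were used, per the labels' protocols. The submitters' processing notes name Cuffnorm 2.2.1, Cuffdiff 2.2.1, TopHat2 2.1.0 and Trimmomatic 0.33, and the mouse build mm9. Gene models and strand setting are not given in the sources used here. FPKM were deposited per gene and library, used as they stand. Depth is therefore known only in relative terms, and no counting error can be given.

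Two-sided tests came from limma 3.58.1 (R 4.3.3), with a mean-variance trend and Benjamini-Hochberg adjustment, on log2(FPKM + 0.5). Genes averaging under 0.5 FPKM were not tested. Alb, at 0 in all controls, was left out as a failed estimate. A simulation of knockout against control on 11289 genes recovered 39% of the 100 given a change of 1 on the log2 scale, and 86% of the 100 given 2, with 3 false calls. The changed genes were drawn only from those above about 1 FPKM in controls. The other 11089 were unchanged, whereas 27% of all genes tested were called in the data. With so few changed genes the adjustment is stricter, so these shares do not give the sensitivity of the fit here. Members passing the test at 5 FPKM or more in the higher group are given in full. From each accompanying list up to 4 called genes of that level with the largest change are named, or the 2 most abundant where fewer than 2 passed; others were chosen after their values were seen. Members, lists and motifs were chosen with earlier results of these data known. Positions are from GENCODE M21 (GRCm38) and promoters from RefSeq (GRCm38.p6), not the authors' build. Fragment numbers assume steps whole within 0.1. Protein sequences were not used here, and 1 gene of the pump partner list is not reported here. Alternatives were other pseudocounts, filters, scalings and variance models, library weights, a replicate block, Alb kept, and each library left out. Figures were drawn with matplotlib 3.10.9.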

Additional observations from a re-analysis of the deposited data

How the results depend on the processing

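Across 18 alternatives, Ctss, Ctsa and Atp6v1b2 passed in all, and Ctsc and Ctsw failed only without control 2 (Ctsw also went untested at a mean of at least 1 FPKM). Leaving out each library in turn, genes called higher numbered 1166 to 1629 and lower 935 to 1484, cathepsins called higher 2 to 6, and pump genes called higher 1 to 2 and lower 0 to 1. The lists' ranges, higher then lower, were 4 to 9 and 1 to 2 (hydrolases), 5 to 7 and 1 to 2 (membrane proteins), 3 to 6 and 0 to 1 (inhibitors), 1 to 2 and 0 (sorting), 0 to 1 and 1 to 3 (regulators) and 1 to 2 and 1 to 3 (pump partners). Rescaling to the same total gave 1 cathepsin lower, 1 pump gene higher, 1 inhibitor lower and 1 sorting gene higher. Equal upper quartiles gave 4 pump genes higher and 1 hydrolase lower. Quantile normalization gave 4 pump genes higher, 1 hydrolase, 1 membrane protein and 2 inhibitors lower, 4 sorting genes higher, 1 regulator higher and 1 lower, and 1 pump partner higher and 1 lower. Without the mean-variance trend there were 4 cathepsins (Ctsd and Ctsz lost), 1 pump gene, 3 inhibitors and 1 sorting gene higher, and 1 hydrolase, 1 membrane protein, 1 regulator and 1 pump partner lower. A mean of at least 1 FPKM gave 1 inhibitor lower and 1 regulator higher. The cause was not tested.

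The replicate numbers showed no sign of pairing the libraries: deviations of same-numbered libraries correlated at -0.01, -0.00012 and 0.0015, and none correlated best with its own number. Differently numbered libraries correlated at -0.036 to 0.037. With all values this near 0, the check cannot exclude a pairing, and the labels do not name one. With the replicate block 5 cathepsins and 2 pump genes were called higher (Ctsd lost, adjusted p = 0.0777), with 1 hydrolase, 1 membrane protein and 1 inhibitor lower, and 1 sorting gene and 1 regulator higher.

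Signs turned only in members that did not pass. With equal upper quartiles the log2 fold change was 0.016 for Atp6v0b, 0.056 for Atp6v0d1 and 0.013 for Atp6v1g1. With quantile normalization it was 0.14 for Atp6v0b, 0.18 for Atp6v0d1, 0.17 for Atp6v1f, 0.10 for Atp6v1g1 and 0.18 for Ctsh. Atp6v1e1 was at -0.059 with the same total and -0.0030 with library weights. Over the libraries left out, values ran from -0.24 to 0.080 for Atp6v0b, -0.071 to 0.035 for Atp6v0d1, -0.056 to 0.20 for Atp6v1e1, -0.31 to 0.071 for Atp6v1f and -0.17 to 0.048 for Atp6v1g1.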
